A study of Homo sapiens with 4 samples.

Results

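The receptors described here are 10 chemoattractant and chemokine receptors, namely FPR1, FPR2, C5AR1, C3AR1, CCR1, CCR2, CX3CR1, CXCR4, CXCR2 and PTAFR. They were chosen by gene symbol, and all 10 were found among the 18885 genes of the table. RNA-seq had been performed on MV4-11, a human line of acute myeloid leukaemia (AML) with monocytic features. There were 2 control libraries, called sh-NC, and 2 libraries in which an shRNA had lowered ANP32B, called sh-ANP32B, and neither group carried another treatment in the labels. The labels enter the shRNA of the control cells as none, whereas the methods name an sh-NC construct, so an effect of transduction cannot be told apart from the loss of ANP32B. The knockdown columns carry the mark S3, and the sources used here do not say which of the ANP32B hairpins it stands for or whether the 2 libraries of a group came from separate cultures. If they did not, the p-values measure only technical spread. The targeted gene, ANP32B, had 358 and 364 TPM (a length-scaled measure of transcript share) in sh-NC but 54.1 and 49.3 TPM in sh-ANP32B.

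Chemoattractant receptors are G protein-coupled receptors by which leukocytes sense and migrate along gradients. FPR1 and FPR2 bind formylated peptides of bacteria and mitochondria, C5AR1 and C3AR1 bind the complement fragments C5a and C3a, and PTAFR binds platelet-activating factor. CCR1, CCR2, CX3CR1, CXCR2 and CXCR4 bind chemokines. Most signal through the inhibitory G proteins, and the majority of them are gained as myeloid cells mature, whereas CXCR4 holds haematopoietic progenitors in the bone marrow.

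After ANP32B knockdown, 7 of the 8 receptors that could be tested were higher, from PTAFR (2.10-fold by mean TPM) to C3AR1 (7.71-fold). CXCR4, by far the most abundant of the 10, was not called, with mean values of 231 and 243 TPM. FPR1 and FPR2 stayed below 1 TPM in at least 3 libraries and were not tested. In bulk libraries, more cells of a kind and more RNA per cell cannot be told apart. A gene was called at a Benjamini-Hochberg adjusted p below 0.05 in limma and a log2 fold change beyond 0.5, where the fold change is on the log2(TPM + 1) scale and understates the change of low genes. By this rule, the background was that 17.9% of the 16937 genes tested were called higher and 10.1% lower, and no receptor was called lower. The same 7 receptors passed with unadjusted p in place of adjusted p, when 20.2% of genes were called higher and 10.8% lower, and with a fold limit of 1, when 6.71% were called higher. The median log2 fold change was 1.64 over the 8 receptors tested and 0.08 over all genes tested. CX3CR1 reached the filter of 1 TPM in 2 libraries only through the knockdown libraries, so it could hardly have been tested without differing, and this count and median are descriptions. The values of each receptor in each library are shown in the plot of receptor TPM.

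**Figure D1:**
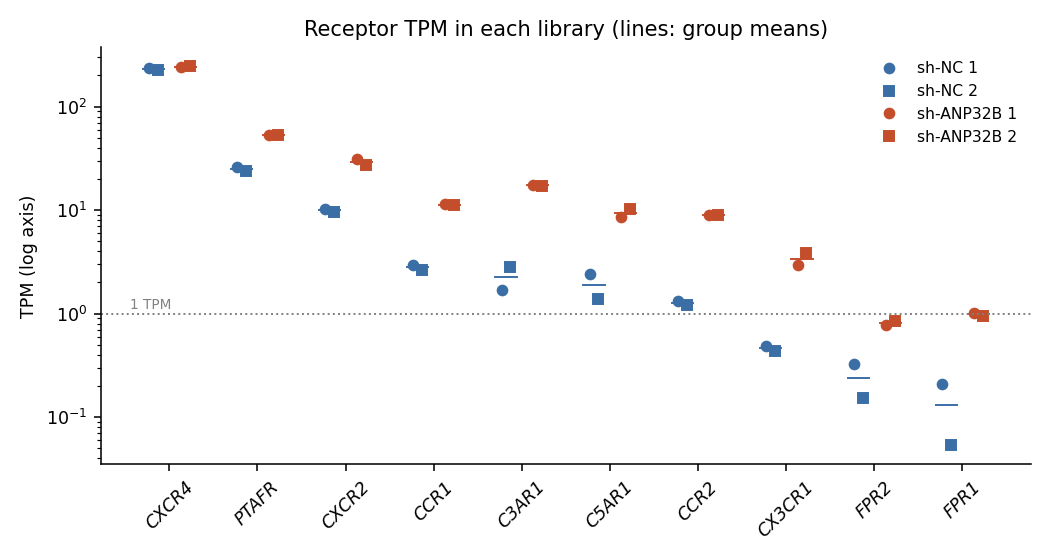
TPM of the 10 receptors (log axis) in the 2 sh-NC libraries (blue) and the 2 sh-ANP32B libraries (red), ordered by the sh-NC mean, with a short line at each group mean and a dotted line at 1 TPM. Both knockdown libraries lie above both sh-NC libraries for every receptor, by the least for CXCR4 (238 and 224 against 242 and 245 TPM).

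The promoters of 4 receptors are printed because they span the range of responses: C3AR1 and CCR2 had the highest log2 fold changes, PTAFR was the most abundant of those that rose, and CXCR4 was not called. Each runs from 250 bases before to 50 bases after the RefSeq gene start, 5′ to 3′ on the strand of the gene (RefSeq, GRCh38.p14). Capitals mark matches, on either strand, to the letters searched for AP-1 (TGANTCA), C/EBP (TTGCNNAA), PU.1 (GAGGAA) and RUNX (TGTGGT).
C3AR1 (chr12:8066310-8066609, minus strand): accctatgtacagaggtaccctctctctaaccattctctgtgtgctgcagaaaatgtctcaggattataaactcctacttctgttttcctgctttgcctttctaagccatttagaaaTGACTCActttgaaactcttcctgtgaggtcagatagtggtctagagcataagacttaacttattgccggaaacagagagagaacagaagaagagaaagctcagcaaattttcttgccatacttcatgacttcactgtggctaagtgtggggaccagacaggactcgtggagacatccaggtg
CCR2 (chr3:46353861-46354160, plus strand): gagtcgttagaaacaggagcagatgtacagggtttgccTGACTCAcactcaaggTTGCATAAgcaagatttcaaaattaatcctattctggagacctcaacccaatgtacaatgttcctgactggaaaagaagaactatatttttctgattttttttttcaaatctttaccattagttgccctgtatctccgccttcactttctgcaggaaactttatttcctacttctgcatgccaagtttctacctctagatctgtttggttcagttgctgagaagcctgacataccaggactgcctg
PTAFR (chr1:28193807-28194106, minus strand): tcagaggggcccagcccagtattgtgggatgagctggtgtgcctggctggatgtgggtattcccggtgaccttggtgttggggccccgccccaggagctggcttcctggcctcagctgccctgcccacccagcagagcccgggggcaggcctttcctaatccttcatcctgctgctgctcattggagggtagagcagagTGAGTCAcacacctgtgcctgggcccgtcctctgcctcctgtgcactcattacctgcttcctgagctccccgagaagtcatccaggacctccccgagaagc
CXCR4 (chr2:136118100-136118399, minus strand): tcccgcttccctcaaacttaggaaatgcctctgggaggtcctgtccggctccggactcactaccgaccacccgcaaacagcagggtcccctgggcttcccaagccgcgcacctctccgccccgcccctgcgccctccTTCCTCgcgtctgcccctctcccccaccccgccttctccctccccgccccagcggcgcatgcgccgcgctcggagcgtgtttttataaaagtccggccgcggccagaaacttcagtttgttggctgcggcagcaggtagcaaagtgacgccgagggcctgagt

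The AP-1 letters were found in 4 of the 10 receptor promoters (C3AR1, CCR2, FPR1 and PTAFR), against 7.76% of 27305 RefSeq promoters of the same length. They begin at position -133 in C3AR1, -212 in CCR2, -51 in PTAFR and -6 in FPR1, counted from the RefSeq start. The RUNX letters were also found in 4 (C5AR1, CCR1, CXCR2 and FPR1), against 13.1% of all promoters. The PU.1 letters were found in 2, C5AR1 and CXCR4, against 27.6%, and the C/EBP letters in CCR2 alone, against 10.6%. None of the 10 held the E-box letters CACGTG, which 7.43% of all promoters hold. None of the AP-1, C/EBP, PU.1 and RUNX matches overlap in the 4 sequences printed. The CXCR4 promoter held the most CpG dinucleotides of the 10, 27, with 66.7% G and C. Of the receptors called higher, C3AR1 and CCR2 had 2 CpG each and 43.7% and 40.7% G and C. PTAFR and C5AR1, also called higher, had 6 and 10 CpG and 63.3% and 61.3% G and C. CCR1, CX3CR1 and CXCR2 had 3, 7 and 7 CpG and 45.3%, 56.3% and 52.0% G and C. The median over all promoters was 14 CpG and 58.3% G and C. These matches are descriptions of the sequence, and binding of any factor was not analysed here.

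The receptors of complement fragments, C3AR1 and C5AR1, were both higher. C3AR1 (ENSG00000171860, chromosome 12, from 8056844 to 8066359, minus strand) had 1.68 and 2.80 TPM in sh-NC and 17.5 and 17.1 TPM in sh-ANP32B. The spread within the sh-NC group was small beside the difference, and the groups did not overlap. Its log2 fold change of 2.52 (standard error, SE, 0.196, limma-adjusted p = 4.32e-04) exceeded that of 99.7% of the genes tested. C5AR1 (ENSG00000197405, chromosome 19, from 47290023 to 47322066, plus strand) had 2.40 and 1.37 TPM against 8.54 and 10.3 TPM (log2 fold change 1.87, SE 0.225, limma-adjusted p = 0.00179). Its standard error was the largest of the receptors tested, and leaving out either sh-NC library moved its log2 fold change to 1.61 or 2.13. C5AR2, the other receptor of C5a, lies within 250000 bases of C5AR1. It had 0.953 and 0.495 TPM against 4.61 and 4.18 TPM (log2 fold change 1.66, limma-adjusted p = 0.00250), and like CX3CR1 it passed the filter through the knockdown libraries alone.

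The CC chemokine receptors were next. CCR2 (ENSG00000121807), the receptor of CCL2 that brings monocytes out of the marrow, lies on the plus strand of chromosome 3 from 46353864 to 46360940. It had 1.31 and 1.21 TPM in sh-NC and 8.96 and 8.89 TPM in sh-ANP32B. Both groups were tight, and the log2 fold change was 2.14 (SE 0.155, limma-adjusted p = 3.54e-04). CCR1 (ENSG00000163823), a receptor of CCL3, CCL5 and CCL23, lies on the minus strand of the same chromosome from 46201711 to 46208313. It had 2.97 and 2.65 TPM against 11.5 and 11.1 TPM (log2 fold change 1.69, SE 0.136, limma-adjusted p = 4.71e-04). CCR3 and CCRL2, close relatives of these genes, were not among the genes listed, all of which average 0.5 TPM or more. None of the windows of 50 bases in the CCR1 transcripts occurs in another gene.

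CX3CR1, the fractalkine receptor of patrolling monocytes and tissue macrophages, was the lowest of the receptors tested. It had 0.492 and 0.433 TPM in sh-NC and 2.96 and 3.81 TPM in sh-ANP32B, and the groups were well apart although the knockdown libraries differed from each other. The log2 fold change was 1.58 (SE 0.214, limma-adjusted p = 0.00275), and the ratio of the mean TPM was 7.32. With a pseudocount of 0.1 in place of 1, the log2 fold change was 2.62. CX3CR1 (ENSG00000168329) lies on chromosome 3 from 39263495 to 39281735, minus strand.

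CXCR2, the neutrophil receptor of CXCL8 and CXCL2, had 10.3 and 9.56 TPM in sh-NC and 30.9 and 27.3 TPM in sh-ANP32B. The libraries of a group lay close together, and the groups were well apart. The log2 fold change was 1.46 (SE 0.101, limma-adjusted p = 3.12e-04). CXCR2 (ENSG00000180871) lies on chromosome 2 from 218125289 to 218137251, plus strand. It shares more sequence with other genes than any other of the 10 receptors, 6.46% of its windows of 50 bases, of which CXCR1 alone holds 3.9%. CXCR1 was not among the genes listed.

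PTAFR, the receptor of the lipid mediator platelet-activating factor, was the most abundant of the receptors that rose. It had 26.3 and 24.0 TPM in sh-NC and 52.6 and 53.1 TPM in sh-ANP32B, with little spread in either group. Its log2 fold change of 1.04 (SE 0.0691, limma-adjusted p = 2.84e-04) was the smallest of the 7, but it still exceeded that of 93.7% of the genes tested. PTAFR (ENSG00000169403) lies on chromosome 1 from 28147166 to 28193936, minus strand. The 5 genes closest to PTAFR in pattern, by Euclidean distance of log2(TPM + 1) centred on each gene over the 4 libraries, were SLC66A3 (distance 0.0369), STXBP2, ENSG00000262418, SEZ6L2 and SERPINB2 (distance 0.0509). With 2 libraries a group, this likeness mainly says that their log2 fold changes, from 1.00 to 1.08, were close to that of PTAFR.

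CXCR4, the receptor of CXCL12, had 238 and 224 TPM in sh-NC and 242 and 245 TPM in sh-ANP32B. The group means differed by less than the 2 control libraries did. The log2 fold change was 0.08 (SE 0.0442, limma-adjusted p = 0.205), with a 95% confidence interval from -0.03 to 0.19 that lay inside the fold limit of 0.5. Its direction depended on the scaling of the libraries. The log2 fold change was -0.02 with median-of-ratios scaling (limma-adjusted p = 0.790) and 0.15 with quantile normalization (limma-adjusted p = 0.0310), still inside the fold limit. The smallest lower bound of the 7 receptors called, that of PTAFR, was 0.87, and the interval of CXCR4 thus lay below all 7. CXCR4 (ENSG00000121966) lies on chromosome 2 from 136114349 to 136119177, minus strand, and none of its windows of 50 bases occurs in another gene.

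**Figure D2:**
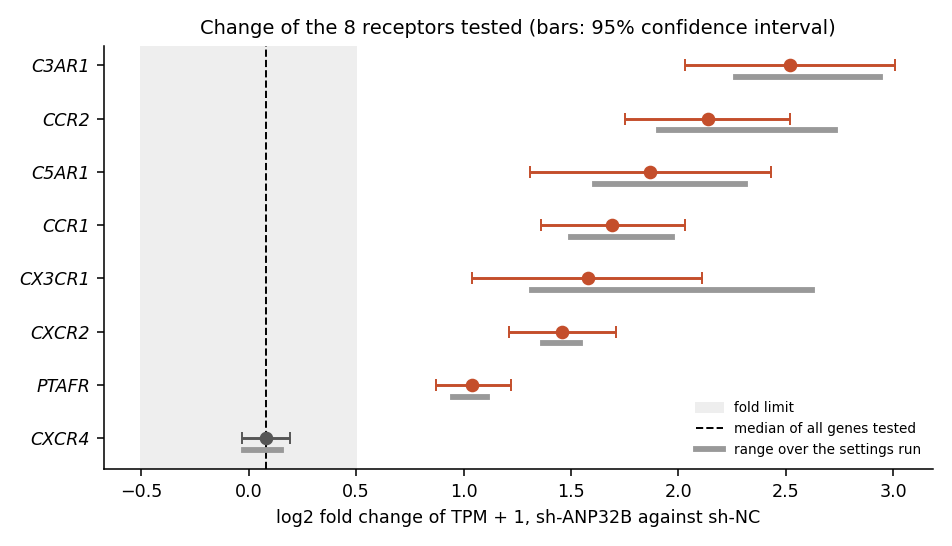
Log2 fold change of TPM + 1, sh-ANP32B against sh-NC, of the 8 receptors tested, with 95% confidence intervals from limma, red where called. Grey lines below each point span the settings run, and CXCR4 lies at the median of all genes tested (0.08) while the other 7 lie between 1.04 and 2.52.

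FPR1 and FPR2, which direct phagocytes to bacterial peptides, were the lowest of the 10. FPR1 (ENSG00000171051, chromosome 19, from 51745172 to 51804115, minus strand) had 0.208 and 0.0533 TPM in sh-NC and 1.02 and 0.957 TPM in sh-ANP32B. FPR2 (ENSG00000171049, chromosome 19, from 51752026 to 51770531, plus strand) had 0.328 and 0.152 TPM against 0.785 and 0.840 TPM. The groups did not overlap for either gene, but at this level few reads can lie behind a value, and how many cannot be read from TPM. The genes listed all average 0.5 TPM or more, which both reach only through the knockdown libraries, so they could hardly be listed without being higher and the values that follow are descriptions. When all 18885 genes were tested without a further filter, FPR1 had a log2 fold change of 0.82 (SE 0.235, limma-adjusted p = 0.0385), and FPR2 had 0.55 (SE 0.235, limma-adjusted p = 0.116). Under that setting 16% of all genes were called higher. FPR3, the remaining formyl peptide receptor, was not among the genes listed.

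Both knockdown libraries exceeded both sh-NC libraries for 10 of the 10 receptors, against 41.9% of all genes listed and 42.5% of the genes tested. FPR1 and FPR2 are listed, and CX3CR1 was tested, only through the knockdown libraries, so this count is a description. The reverse, both knockdown libraries below both sh-NC libraries, held for 32.1% of the genes tested. An exact two-sided permutation test on 2 and 2 libraries has 0.33 as its smallest p, and the p-values given here therefore borrow their error from other genes through limma. The log2 fold changes of the 7 receptors called exceeded those of 93.7% (PTAFR) to 99.7% (C3AR1) of all genes tested, and that of CXCR4 exceeded 49.8%. A comparison with genes of similar level alone was not made.

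**Figure D3:**
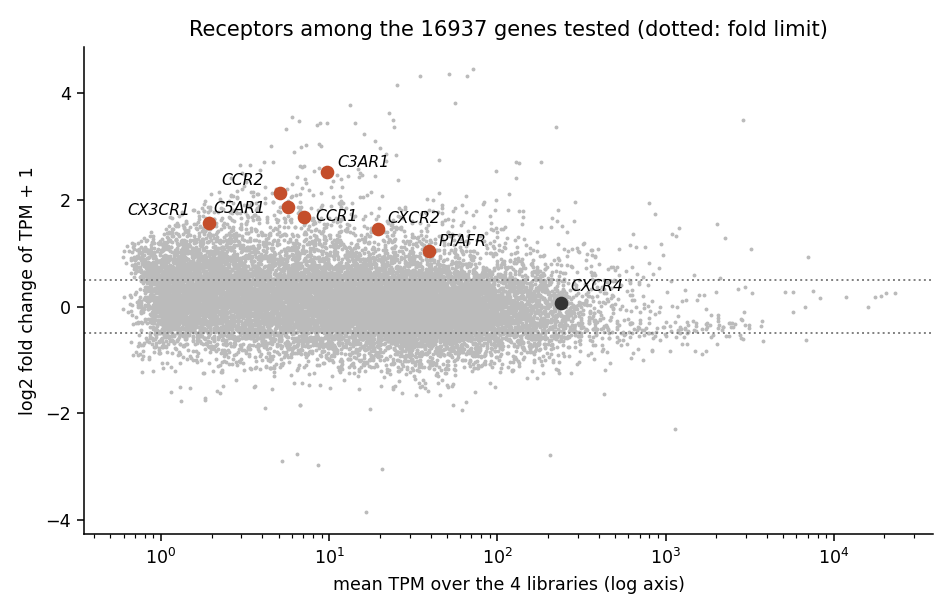
Log2 fold change of TPM + 1 against mean TPM over the 4 libraries (log axis) for the 16937 genes tested (grey), with the 8 receptors tested marked. C3AR1, CCR2, C5AR1, CCR1, CX3CR1, CXCR2 and PTAFR lie above the fold limit of 0.5, and 49.8% of the genes lie below CXCR4.

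TPM are scaled for gene length, so the levels of the receptors can be ordered. In sh-NC the order of the mean TPM was CXCR4, PTAFR, CXCR2, CCR1, C3AR1, C5AR1, CCR2, CX3CR1, FPR2 and FPR1. The libraries of CCR1 and C3AR1 overlapped, as did those of C3AR1 and C5AR1 and those of FPR2 and FPR1, so these neighbours cannot be ordered. In sh-ANP32B, C3AR1 lay above CCR1 and FPR1 above FPR2, without overlap, and C5AR1 and CCR2 overlapped. The 10 receptors summed to 284 and 266 TPM in sh-NC and to 377 and 378 TPM in sh-ANP32B. CXCR4 made up 83.8% and 84.1% of this sum in sh-NC, but 64.3% and 64.7% after knockdown. Without CXCR4, the sum was 46.0 and 42.2 TPM against 135 and 133 TPM.

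**Figure D4:**
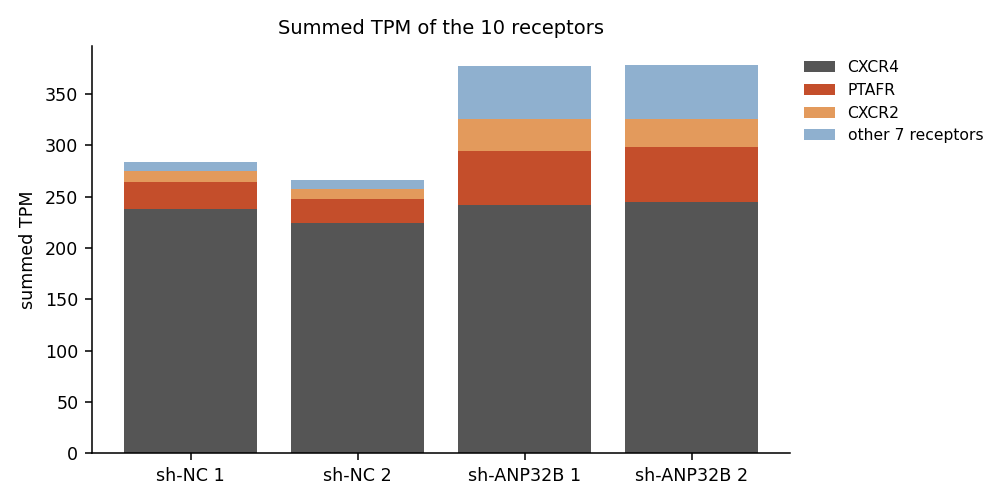
Summed TPM of the 10 receptors in each library, stacked by CXCR4, PTAFR, CXCR2 and the other 7. The CXCR4 part is of about the same height in all 4 libraries, while the part without CXCR4 is 46.0 and 42.2 TPM in sh-NC and 135 and 133 TPM in sh-ANP32B.

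The receptors are alike in gene structure. In the main transcript of GENCODE version 44 (MANE Select), the coding sequence of 8 of the 10 lies in 1 exon, and that of C5AR1 and CXCR4 is split over 2 exons. Coding sequences range from 1026 bases in PTAFR to 1446 bases in C3AR1. None of the 10 shares exonic bases with another annotated gene on either strand. In position, CCR1 and CCR2 lie together on chromosome 3 and FPR1 and FPR2 overlap on opposite strands of chromosome 19, without shared exons. Within 250000 bases of CCR2, CCR1 was the only gene tested, and within the same distance of CCR1, CCR2 was called higher and FYCO1 was not called (log2 fold change 0.13, limma-adjusted p = 0.345). Near FPR1, 4 of 7 genes tested were called higher, and all 4 encode siglecs, receptors of sialic acid (SIGLEC5, SIGLEC6, SIGLEC12 and SIGLEC14). SIGLEC5 and SIGLEC14 are near-identical in part, so the split of reads between them is uncertain. Near CXCR4, none of 3 genes tested was called higher and MCM6, a replication helicase subunit, was lower (log2 fold change -1.02, limma-adjusted p = 1.60e-04). Neighbours did not all share the direction of the receptor: SAE1 (log2 fold change -0.97) and TMEM160 (-0.59) were called lower near C5AR1, and RPSA (-0.59) near CX3CR1, although both receptors were higher. TMEM160 was not called without sh-ANP32B replicate 1 (log2 fold change -0.43), nor RPSA with quantile normalization (log2 fold change -0.41). These neighbours were named after their values were seen.

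Of 24 other chemoattractant receptors, 10 were among the genes listed and tested, and 3 were called higher and none lower. The share called higher was 30.0%, against 17.9% of all genes tested. CYSLTR1, a receptor of cysteinyl leukotrienes, had 8.91 and 9.08 TPM against 23.5 and 24.1 TPM (log2 fold change 1.31, limma-adjusted p = 2.84e-04). CCR10 had 11.5 and 9.85 TPM against 26.9 and 25.5 TPM (log2 fold change 1.22), and 17.7% of its exonic bases lie opposite CNTNAP1, so without strand its reads cannot be told apart there. LTB4R2 was called at 0.59, but it shares 39.5% of its exonic bases with CIDEB and was not called with median-of-ratios scaling (log2 fold change 0.49) or without sh-ANP32B replicate 2 (log2 fold change 0.45). LTB4R, the high-affinity receptor of leukotriene B4, had 42.4 and 39 TPM against 41.2 and 39.1 TPM and overlapped between groups (log2 fold change -0.02, 0.04 without sh-NC replicate 1). S1PR4 and GPR183 had log2 fold changes of 0.49 and 0.27 and were not called, but S1PR4 was called with quantile normalization (log2 fold change 0.51) and without sh-ANP32B replicate 1 (log2 fold change 0.52). The other chemoattractant receptors not listed include CCR7, CXCR5 and CXCR6, receptors of lymphocytes. CXCR3 was listed but not tested, with 0.616 and 1.38 TPM against 0.619 and 0.945 TPM.

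Of 39 ligands, 12 were listed and 11 tested, and 7 were called higher and 2 lower. These were 63.6% and 18.2% of the ligands tested, against 17.9% and 10.1% of all genes tested. CXCL2 and CXCL16, both called higher, passed the filter through the knockdown libraries alone, as did CCL2, so this count is a description. CXCL8, which acts on CXCR2, had 3.45 and 3.33 TPM in sh-NC and 42.2 and 47.4 TPM in sh-ANP32B (log2 fold change 3.38, SE 0.104, limma-adjusted p = 6.52e-05). CCL2, the main ligand of CCR2, had 0.504 and 0.258 TPM against 5.41 and 5.08 TPM (log2 fold change 2.18, limma-adjusted p = 7.43e-04), and it passed the filter through the knockdown libraries alone. CCL23, a ligand of CCR1, had 5.33 and 5.03 TPM against 17.9 and 20 TPM (log2 fold change 1.69). CCL5, another ligand of CCR1, was not called (log2 fold change 0.31). MIF, which binds CXCR2 and CXCR4, was called lower (log2 fold change -0.63). Ligand and receptor were both called higher for CXCL8 and CXCR2, CCL2 and CCR2, and CCL23 and CCR1. These 3 ligands were named for having the highest log2 fold changes of the list, so the pairs are descriptions. C3, the source of C3a, was called higher as well (1.70 and 1.82 against 4.85 and 4.67 TPM), whereas C5, the source of C5a, had 17.7 and 18.9 TPM against 13.2 and 13.1 TPM (log2 fold change -0.44) and was not called, but it was called lower with median-of-ratios scaling (log2 fold change -0.54) and with quantile normalization (log2 fold change -0.52). ANXA1, whose amino-terminal peptide acts on formyl peptide receptors, was higher, with 15.1 and 12.9 TPM against 33.1 and 35.9 TPM. C3, C5 and ANXA1 were named after their values were seen.

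The ligands called lower were MIF, which binds CXCR4 and CXCR2, and HEBP1, whose cleaved peptide acts on formyl peptide receptors. MIF had 644 and 639 TPM in sh-NC and 399 and 432 TPM in sh-ANP32B (log2 fold change -0.63, limma-adjusted p = 3.85e-04), and 94.1% of its exonic bases lie opposite MIF-AS1, which stayed at or below 15.7 TPM. MIF also shares 48.9% of its exonic bases with an unlisted protein-coding gene on the same strand, and 43.4% lie opposite another unlisted gene. HEBP1 had 49.7 and 51.4 TPM against 29.6 and 33.6 TPM (log2 fold change -0.66, limma-adjusted p = 0.00172). CCL5 had a log2 fold change of 0.31, inside the fold limit. CXCL12, the ligand of CXCR4, and CX3CL1, the ligand of CX3CR1, were not among the genes listed.

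Genes that make or break down ligands were mixed. Of 17 tested, 7 were called higher and none lower, with a median log2 fold change of 0.34. The share called higher was 41.2%, against 17.9% of all genes tested. CFP, which stabilises the convertase of the alternative complement pathway, had 4.75 and 5.01 TPM against 32.4 and 44.6 TPM (log2 fold change 2.73). CFD, the protease of the same pathway, had 30.9 and 36.3 TPM against 222 and 228 TPM (log2 fold change 2.71). ALOX5AP, which presents arachidonic acid for leukotriene synthesis, had 44.4 and 42.3 TPM against 193 and 187 TPM (log2 fold change 2.11, SE 0.0496, limma-adjusted p = 4.44e-05). LPCAT1, a lysophospholipid acyltransferase, had a log2 fold change of 0.34 and was not called, but its call rested on 1 library: it was called without sh-NC replicate 2 (log2 fold change 0.50), and its log2 fold change was 0.17 without sh-NC replicate 1. CFP shares 49.0% of its exonic bases with an unlisted gene on the same strand.

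The signalling genes downstream of the receptors also moved in part. Of 31 G proteins and effectors tested, 12 (38.7%) were called higher and none lower, against 17.9% and 10.1% of all genes tested. Only 6 of the 31 were called higher with median-of-ratios scaling, under which 2430 of all genes tested were called higher. PIK3R6, a regulatory subunit of the phosphoinositide 3-kinase that G proteins activate, had 0.932 and 0.664 TPM against 7.56 and 6.0 TPM, and passed the filter through the knockdown libraries alone, with a log2 fold change of 2.11 (limma-adjusted p = 8.10e-04). FGR, a Src family kinase of phagocytes, had 10.8 and 12.0 TPM against 48.4 and 41.3 TPM (log2 fold change 1.88). PLCB2, the phospholipase C of myeloid cells, had 55.0 and 59.6 TPM against 157 and 161 TPM (log2 fold change 1.46, limma-adjusted p = 8.96e-05). GNAI2, the main inhibitory G protein of leukocytes, was called at the fold limit (407 and 414 against 582 and 583 TPM), and it was not called with median-of-ratios scaling (log2 fold change 0.41) or without sh-NC replicate 1 (log2 fold change 0.49). GNB1 and RHOA had log2 fold changes of 0.02 each, which became -0.08 with median-of-ratios scaling.

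Of 14 genes of receptor desensitisation tested, 5 (35.7%) were called higher and 1 (7.14%) lower, against 17.9% and 10.1% of all genes tested. RGS18, a regulator of G protein signalling of myeloid cells and platelets, had 35.4 and 30.6 TPM against 113 and 121 TPM (log2 fold change 1.80, limma-adjusted p = 1.29e-04). GRK4 and RGS14 followed at 0.88 and 0.84. RGS19 was called at 0.55, and not with median-of-ratios scaling (log2 fold change 0.45) or without sh-NC replicate 1 (log2 fold change 0.50). RGS16 was the gene called lower, with 10.6 and 9.73 TPM against 6.03 and 5.80 TPM (log2 fold change -0.69, limma-adjusted p = 0.00691). GRK2 and ARRB2, with RGS19 the most abundant of the list, had log2 fold changes of 0.17 and 0.36 inside the fold limit.

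**Figure D5:**
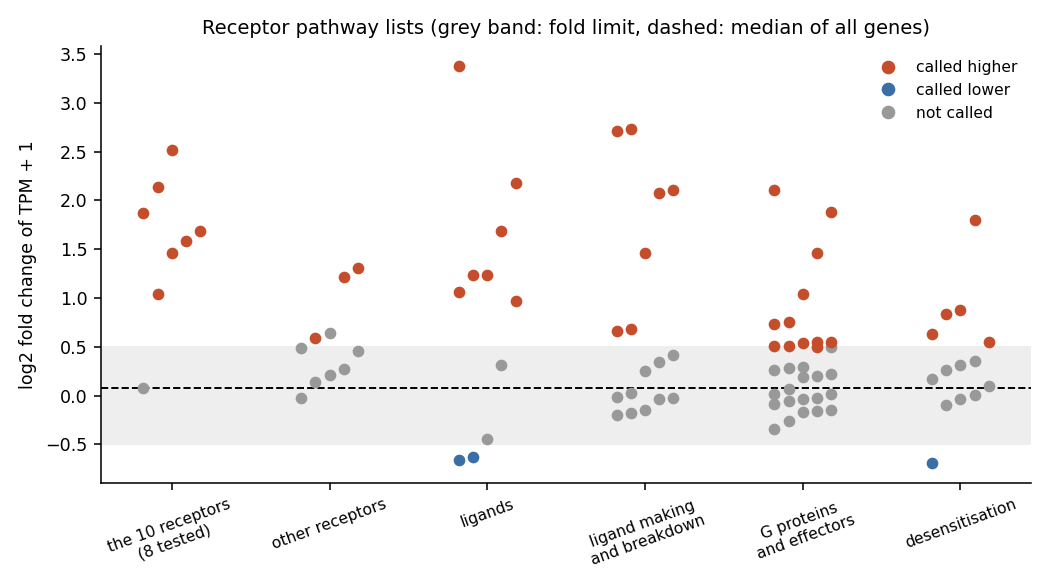
Log2 fold change of TPM + 1 of every gene tested in the receptor list and the 5 pathway lists, red where called higher, blue where called lower and grey otherwise, with the fold limit as a grey band and the median of all genes tested as a dashed line. Called lower were MIF and HEBP1 among ligands and RGS16 among desensitisation genes, and each list holds genes inside the band.

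Most listed monocyte markers were called higher, and neutrophil markers in part. The 8 listed monocyte markers summed to 511 to 517 TPM in sh-NC and to 5538 to 5590 TPM in sh-ANP32B, most of it LYZ, and 7 of the 8 were called higher. CSF1R was not called (log2 fold change 0.56, limma-adjusted p = 0.0828), and CD14, VCAN, CD163 and FCGR3A were not among the genes listed. The 7 listed neutrophil markers summed to 3530 to 3532 TPM against 5229 to 5348 TPM, and 3 (42.9%) were called higher. AZU1, PRTN3, CTSG and CEBPE were not called, with log2 fold changes of 0.49, 0.23, 0.28 and 0.15. Of the 9 T and NK cell markers, CD2 and NKG7 were listed, with a sum of 74.8 to 76.5 TPM against 61.9 to 66.7 TPM, of which CD2 was called higher (0.521 and 0.442 against 3.62 and 3.63 TPM), and the T cell receptor genes CD3D, CD3E, CD3G and TRAC were not listed. Of 7 erythroid and platelet markers only ITGA2B was listed, at up to 1.30 TPM. Of 8 genes chosen as markers of the MV4-11 line, 7 were listed and CD34 was not. HOXA10 (160 and 161 against 97.9 and 107 TPM) and MEIS1 (44.2 and 47.9 against 30.2 and 29.6 TPM) were called lower, CD4 was called higher (381 and 383 against 619 and 618 TPM), and HOXA9, CD33, FLT3 and KIT were not called. The part of these markers in the receptor values was not tested.

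Over all genes tested, variance on the first principal component was 77.8%, and Pearson's r across genes was 0.989 and 0.987 within the groups and from 0.956 to 0.957 between them. Genes are not independent replicates in such a correlation. The share of calls that were lower was 36.1% without rescaling, 48.9% with median-of-ratios scaling and 49.8% with quantile normalization. These scalings moved the median over all genes from 0.08 to 0.00 and to -0.04 on the log2 scale. The 7 receptors were called higher under each of these scalings.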

How the data were processed

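RNA-seq of MV4-11 cells was analysed in 2 sh-NC and 2 sh-ANP32B libraries, grouped by the sample titles. Reads had been aligned to hg38 with HISAT2 (version 2.0.5, per the processing notes of the submitters). The authors deposited 1 value per gene and library, and these are TPM, a unit read from the values, which sum to between 997271 and 998546 per library. The quantifier, annotation and strand handling are not given in the sources used here. TPM keep no read numbers, so read depth is not known and counting error was not estimated.

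Of 18885 gene identifiers, 17290 were matched to symbols. The count model of the study needs read counts, so limma (version 3.58.1, R 4.3.3) with lmFit and eBayes with a trend was used on log2(TPM + 1). It covered 16937 genes that reached 1 TPM in 2 or more libraries. P-values were adjusted over all of them by the Benjamini-Hochberg method. The test was checked on simulated data. Annotation came from GENCODE version 44 on hg38 and promoters from RefSeq, in which all 10 receptors were matched. Python 3.11.15 with numpy 2.4.6, pandas 2.3.3 and matplotlib 3.10.9 was used.

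The receptors and the gene lists were chosen with earlier results of these data known. The text names all receptors, their closest relatives and ANP32B, and from each pathway list the 3 genes with the highest mean TPM and the 3 called genes with the highest and the lowest log2 fold change. The alternatives were a replicate block, a pseudocount of 0.1, quantile normalization, median-of-ratios scaling, no filter, a filter of 1 TPM in all libraries, unadjusted p, a fold limit of 1, and each library left out. Libraries of Kasumi-1 cells and CUT&Tag data were not analysed here, and a few results of single genes are not reported here.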

Additional observations from a re-analysis of the deposited data

How the results depend on the processing

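Over the alternatives run, 7 receptors were called higher in each, except 6 at 1 TPM in every library, where CX3CR1 was not tested, and 8 with no filter, where FPR1 was added, and none was called lower. With the replicate number as a block in limma, C3AR1 had adjusted p = 0.00189, the number called higher stayed at 7, and no call of a receptor changed. The correlation of same-numbered libraries over genes, as deviations from their group means, was -0.0232. With 2 libraries a group, it cannot tell whether same-numbered libraries were prepared together. When single libraries were left out, the number called higher stayed at 7, and C3AR1, the receptor with the highest log2 fold change, had 2.27 to 2.77. The median log2 fold change of the receptors tested was 2.14 with a pseudocount of 0.1, 1.52 with no filter and 1.44 with quantile normalization. Over all genes, a fold limit of 1 left 1136 genes called higher and 273 lower. It left no ligand called lower, 4 G proteins and effectors and 1 desensitisation gene called higher, and 0 desensitisation genes called lower. At 1 TPM in every library, 0 close relatives and 4 ligands were called higher, since C5AR2, CCL2, CXCL2 and CXCL16 were not tested there. With median-of-ratios scaling 6 G proteins and effectors were called higher, and the log2 fold change was -0.02 for CXCR4, -0.08 for GNB1 and -0.08 for RHOA. GNB1 was at -0.01 without sh-ANP32B replicate 1, and LTB4R at 0.02 without sh-ANP32B replicate 2 and 0.04 without sh-NC replicate 1. The cause of these changes was not tested. Because the depth is unknown, values under 1 TPM, those of FPR1 and FPR2 above all, carry an error that the replicates alone describe.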
